A study of Homo sapiens with 12 samples.

Results

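The SLC44 family, also called the choline transporter-like proteins, has 5 members in the human genome, *SLC44A1* to *SLC44A5*. They were taken by name as 5 of the 26485 genes in a table of raw RNA-seq counts. The family was taken up because *SLC44A2* had lower counts with every PEG10 construct in these same libraries. Differences of *SLC44A2* among constructs are therefore given as a description with no test, and the other 4 members were tested.

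HEK293 is an established line of human embryonic kidney cells. Wild-type HEK293 cells were transfected with PEG10 gag-pol, PEG10 gag, PEG10 NC (the nucleocapsid fragment of gag) or the control construct LifeAct-Dendra2, an actin-binding peptide fused to a fluorescent protein. This is the control named by the sample labels, while the study's methods speak of a pCDNA negative control. The study lists a LifeAct construct in a pCDNA vector, like the PEG10 constructs, so both names can stand for the same plasmid. That list does not give LifeAct as a Dendra2 fusion, so this is not certain. All plasmids carried a CMV promoter, 1 μg was transfected, and cells were harvested 48 hr later. Each of the 4 constructs has 3 libraries, numbered 1 to 3, which came from separate passages of 1 cell line, so the spread between replicates is that between passages. The comparisons ask how overexpressed PEG10, a protein encoded by a gene derived from a retrotransposon, and its parts alter transcript levels. Since these are bulk libraries, a lower count in all cells and a larger change in the transfected cells alone cannot be told apart.

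Choline is a charged nutrient that needs a carrier to cross membranes. Inside the cell it is phosphorylated and built into phosphatidylcholine and sphingomyelin, oxidised to betaine in mitochondria or, in cholinergic neurons, turned into acetylcholine. SLC44A1 carries choline at the plasma membrane and in mitochondria. SLC44A2 transports choline and ethanolamine, is found in mitochondria of platelets and carries a neutrophil alloantigen. SLC44A4 transports thiamine pyrophosphate in the colon, and the roles of SLC44A3 and SLC44A5 are less well described.

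Between 30625725 and 45316749 counts per library fell on genes. *PEG10* took 0.0230 to 0.0346% of them in control libraries, 2.80 to 7.35% in gag-pol libraries, 3.78 to 6.10% in gag libraries and 0.238 to 0.389% in NC libraries, so every library labelled with a PEG10 construct was above every control library. The HEK293 markers *VIM*, *NEFL*, *NEFM*, *INA*, *CDH2* and *PAX2* were counted in every library, with *NEFM* lowest at 41 to 119 raw counts. Of the markers of other cell types, *INS* was at 0 in all 12 libraries, *PTPRC*, *CD3E*, *HBB* and *KRT5* never exceeded 7 raw counts, and *ALB* had 6 to 50. *ALB* was called lower with gag-pol (log2 fold change -2.09, adjusted p = 0.013 in edgeR). *NEFL* was called higher with gag-pol (0.56, adjusted p = 0.0087) and with NC (0.75, adjusted p = 0.0024), as were *VIM* (0.36, adjusted p = 0.0097) and *CDH2* (0.28, adjusted p = 0.027) with NC. The other HEK293 markers were not called and did not move together. With gag-pol, gag and NC, *NEFM* was at -0.83, -0.64 and -0.19, *INA* at 0.01, -0.23 and -0.01 and *PAX2* at 0.36, 0.08 and 0.16. The part of these genes in the results was not tested. All 5 members were among the 17176 genes that passed the filter on low counts.

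*SLC44A2* spans bases 10602457 to 10644557 of chromosome 19 (GRCh38, forward strand), and its 15 annotated transcripts (GENCODE release 44) merge into 23 exons of 4952 bases. RefSeq places starts of the gene at 2 sites that lie 23098 bases apart. The deposited counts are sums over the whole gene, so transcripts from both starts enter the same value. The windows upstream of both starts are shown because the gene's lower counts cannot be assigned to either. The window of *SLC44A5*, whose counts are described below, is shown beside them. The motif in capitals is the GC box, GGGCGG on either strand (CCGCCC on the other), a match to letters and not a measured binding site. The first *SLC44A2* window is chr19:10602205-10602454 on the forward strand. The second is chr19:10625303-10625519, which lies inside the gene body. It is cut before the first annotated transcript start within the window. The *SLC44A5* window is chr1:75611115-75611364 on the reverse strand. All are from RefSeq on GRCh38.p14, 5′ to 3′.
SLC44A2, first start: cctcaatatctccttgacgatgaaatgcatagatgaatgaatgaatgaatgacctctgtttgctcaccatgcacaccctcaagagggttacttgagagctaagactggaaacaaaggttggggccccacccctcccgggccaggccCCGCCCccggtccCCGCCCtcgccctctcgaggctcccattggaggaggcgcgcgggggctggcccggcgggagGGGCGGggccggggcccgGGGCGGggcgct
SLC44A2, second start: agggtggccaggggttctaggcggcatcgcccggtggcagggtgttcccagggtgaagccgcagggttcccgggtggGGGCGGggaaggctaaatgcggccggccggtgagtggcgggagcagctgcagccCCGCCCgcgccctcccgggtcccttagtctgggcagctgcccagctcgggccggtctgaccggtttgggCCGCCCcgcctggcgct
SLC44A5: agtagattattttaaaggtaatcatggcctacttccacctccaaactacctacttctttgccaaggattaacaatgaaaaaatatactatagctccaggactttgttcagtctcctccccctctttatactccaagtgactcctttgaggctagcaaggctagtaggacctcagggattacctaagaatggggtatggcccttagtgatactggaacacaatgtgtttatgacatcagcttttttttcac

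CCAAT and TATAAA were also matched on either strand. The first *SLC44A2* window held 4 GC boxes and 1 CCAAT match (ATTGG as printed), and the second held 3 GC boxes. Their 250-base windows had a GC content of 65.6% and 75.2%, against a median of 58.0% over 35116 promoter windows. A GC box was found in 42.6% of all these windows and CCAAT in 32.0%. The *SLC44A5* window had a GC content of 40.8%, no GC box and 1 match to TATAAA, which 10.7% of all windows hold.

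*SLC44A2* was the member with the highest level per length in control cells. Levels are given as CPM, the library-size-scaled count unit of edgeR, divided by the kilobases of merged exon. It stood at 26.0 ± 3.94 (SD, n = 3), above 89.6% of the 16507 tested genes with a known length. Among 273 genes of the solute carrier (SLC) families it was at rank 21. *SLC44A1* followed at 3.89 ± 0.666 (SD, n = 3) and *SLC44A5* at 3.25 ± 0.113 (SD, n = 3). Single control libraries of *SLC44A1* ran from 3.30 to 4.61 and those of *SLC44A5* from 3.19 to 3.39, so these neighbours in the order overlapped. *SLC44A3* stood at 1.16 ± 0.0581 (SD, n = 3) and *SLC44A4* at 0.277 ± 0.0855 (SD, n = 3), and their ranges were apart from each other and from those of the other members. With the longest annotated transcript as the length, *SLC44A1* stood at 4.59 and *SLC44A5* at 4.65 in control cells, so the order of that pair turned.

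**Figure D1:**
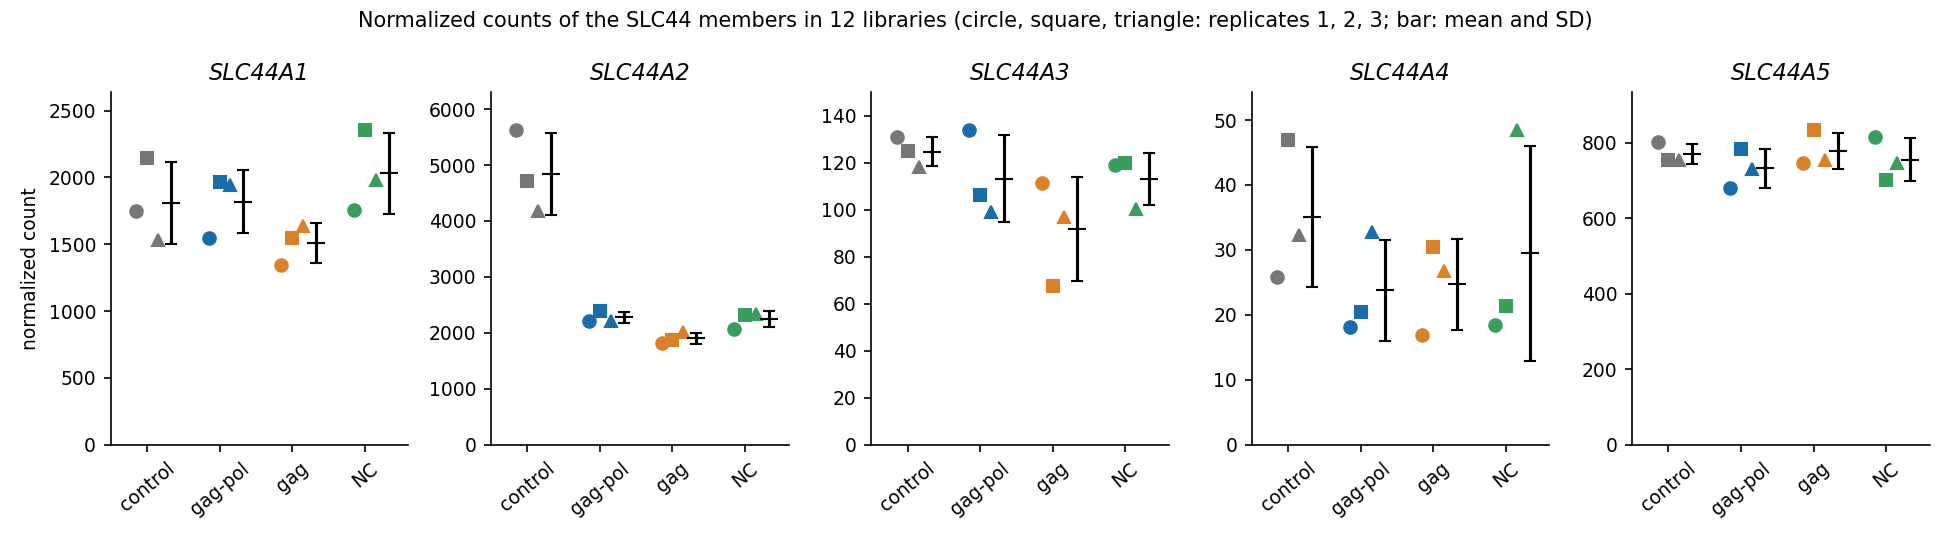
Normalized counts (counts scaled to the mean library size, linear axis from 0) of the 5 SLC44 members in each of the 12 libraries, by construct, with the replicate number as symbol and the mean and SD as bar. *SLC44A2* lies at 4181 to 5631 in control cells and at 1818 to 2397 with the PEG10 constructs, while the constructs of *SLC44A1*, *SLC44A4* and *SLC44A5* overlap with control.

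The raw counts of *SLC44A2* in replicates 1, 2 and 3 were 5425, 5305 and 3889 in control cells. They were 2203, 2457 and 2567 with gag-pol, 1504, 1911 and 1956 with gag and 2022, 2502 and 2125 with NC. Every library with a PEG10 construct was below every control library. Scaled to the mean library size, the normalized count was 4840 ± 734 in control cells, 2274 ± 106 in gag-pol cells, 1901 ± 100 in gag cells and 2247 ± 151 in NC cells (SD, n = 3 each). The control libraries were the most spread of the groups, with control replicate 1 highest at 5631 and control replicate 3 lowest at 4181.

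Against control, *SLC44A2* stood at 47.0% of its control level with gag-pol, a log2 fold change of -1.09 (standard error 0.10). With gag it stood at 39.4% (log2 fold change -1.35, standard error 0.10), and with NC at 46.5% (-1.10, standard error 0.10). These comparisons share the 3 control libraries. None of the 12 libraries is from untransfected cells, so a fall with PEG10 and a rise with the control construct cannot be told apart. In each comparison the fold change was closest to 0 in replicate 3. Within replicates 1, 2 and 3, the log2 ratio to the control library of the same number was -1.34, -0.97 and -0.92 with gag-pol, -1.63, -1.33 and -1.05 with gag, and -1.44, -1.02 and -0.84 with NC. Among the 273 SLC genes tested, *SLC44A2* had the lowest log2 fold change with gag, the 17th lowest with gag-pol and the 16th lowest with NC. The percent of all tested genes called lower at an adjusted p under 0.05 was 5.83 in gag-pol cells, 0.384 in gag cells and 5.15 in NC cells (called higher: 5.48, 0.699 and 6.04). Nothing is read from these ranks or percents for *SLC44A2*, which was chosen on these contrasts.

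Between PEG10 constructs, *SLC44A2* was lowest with gag. Gag-pol libraries ran from 2207 to 2397 normalized counts and gag libraries from 1818 to 2013, and all gag-pol and NC libraries were above all gag libraries. The log2 difference was 0.26 between gag-pol and gag and 0.24 between NC and gag (standard error 0.10 each). Gag-pol and NC overlapped, with a log2 difference of -0.02 for NC against gag-pol (standard error 0.10). The share of *PEG10* in the counts, given above, was lower with NC than with gag-pol. The NC construct holds only part of gag, so these shares do not measure molecules on 1 scale.

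The choice of the family did not use differences between replicate numbers, which were tested over all constructs in the same fit. *SLC44A2* differed by a log2 value of 0.01 between replicates 2 and 1 (95% interval -0.16 to 0.18), by -0.04 between 3 and 1 (-0.21 to 0.14) and by -0.04 between 3 and 2 (-0.21 to 0.13). None was called by edgeR's quasi-likelihood test (adjusted p = 0.96, 0.77 and 0.75). In the same contrasts 30.5%, 41.6% and 27.1% of all genes tested were called.

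*SLC44A1* (chromosome 9, 105244622 to 105439171, forward strand) was the member whose tested difference between constructs passed the threshold. Its normalized counts in replicates 1, 2 and 3 were 1749, 2145 and 1534 in control cells, 1546, 1966 and 1943 with gag-pol, 1342, 1544 and 1637 with gag and 1753, 2357 and 1983 with NC. Each NC library was above every gag library, and both groups overlapped with control. NC exceeded gag by 0.42 on the log2 scale (standard error 0.10, 95% interval 0.22 to 0.63), higher in 3 of 3 replicates (quasi-likelihood test of edgeR, adjusted p = 0.0062). In this contrast 16.9% of all genes tested were called, so a called gene is common in it. The call was lost without gag replicate 2 (0.34, adjusted p = 0.0603 in edgeR), without replicate number 1 (adjusted p = 0.0824) and without replicate number 2 (adjusted p = 0.0937). It was also lost with no replicate block in the edgeR model (adjusted p = 0.403).

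The other differences of *SLC44A1* did not pass. Gag against control gave a log2 fold change of -0.26 (standard error 0.10, unadjusted p = 0.015, adjusted p = 0.23 in edgeR), below control in 2 of 3 replicates. Without control replicate 3 this value was -0.40 with an adjusted p = 0.0246 in edgeR, and without replicate number 3 it was -0.44 with an adjusted p = 0.0137. Control replicate 3 held the lowest *SLC44A1* count of the control libraries, and only in that replicate was gag above control. Gag-pol against control gave 0.01 (95% interval -0.20 to 0.21) and NC against control gave 0.16 (-0.04 to 0.37). Gag-pol against gag gave 0.27 (0.06 to 0.47, adjusted p = 0.10 in edgeR), higher in 3 of 3 replicates, and passed with only the 6 libraries compared (adjusted p = 0.0214) and without control replicate 3 (adjusted p = 0.0370). In that contrast 6.46% of all genes were called. NC against gag-pol gave 0.16 (-0.05 to 0.36), where 0.0873% of all genes were called.

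*SLC44A1* also moved with replicate number. It was higher in replicate 2 than in replicate 1 by 0.32 on the log2 scale (standard error 0.09, adjusted p = 0.0068 in edgeR), in each of the 4 constructs. Without control replicate 2 the value was 0.27 with an adjusted p = 0.0576 in edgeR. Replicate 3 exceeded replicate 1 by 0.16 (adjusted p = 0.15 in edgeR), and by 0.26 without control replicate 3 (adjusted p = 0.0103).

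*SLC44A5* (chromosome 1, 75202129 to 75611114, reverse strand) was the steadiest member. Its raw counts ran from 618 to 851 over the 12 libraries. The normalized count was 770 ± 26.8 in control cells, 732 ± 51.3 in gag-pol cells, 779 ± 48.2 in gag cells and 754 ± 56.8 in NC cells (SD, n = 3 each), and all groups overlapped. The log2 fold change against control was -0.07 with gag-pol (95% interval -0.30 to 0.15), 0.02 with gag (-0.21 to 0.24) and -0.03 with NC (-0.25 to 0.19), which leaves room for changes of either sign within these bounds.

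*SLC44A3* (chromosome 1, 94820342 to 94895246, forward strand) and *SLC44A4* (chromosome 6, 31863192 to 31879046, reverse strand) were counted at low depth. *SLC44A3* had 126, 141 and 110 raw counts in control cells, 133, 109 and 115 with gag-pol, 92, 69 and 94 with gag and 116, 129 and 91 with NC. Its gag libraries, at 68 to 111 normalized counts, were below its control libraries at 118 to 131, and the other constructs overlapped with control. Gag against control gave -0.46 on the log2 scale (95% interval -0.93 to 0.02, adjusted p = 0.39 in edgeR), and 1.08% of all genes were called in that contrast in either direction. With gag-pol and NC the log2 fold change was -0.15 (-0.62 to 0.31) and -0.14 (-0.61 to 0.32).

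*SLC44A4* had 14 to 53 raw counts per library, the fewest of the family. Its normalized count was 35.1 ± 10.8 in control cells, 23.8 ± 7.83 in gag-pol cells, 24.7 ± 6.99 in gag cells and 29.5 ± 16.5 in NC cells (SD, n = 3 each), with overlap between all groups. The log2 fold changes were -0.59 with gag-pol (95% interval -1.52 to 0.34), -0.53 with gag (-1.46 to 0.40) and -0.33 with NC (-1.25 to 0.60). Each interval included 0 and values below -1, so falls of that size are not excluded by these data. Between replicate numbers 3 and 1 the log2 difference was 0.83 (standard error 0.40, adjusted p = 0.094 in edgeR), not called.

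**Figure D2:**
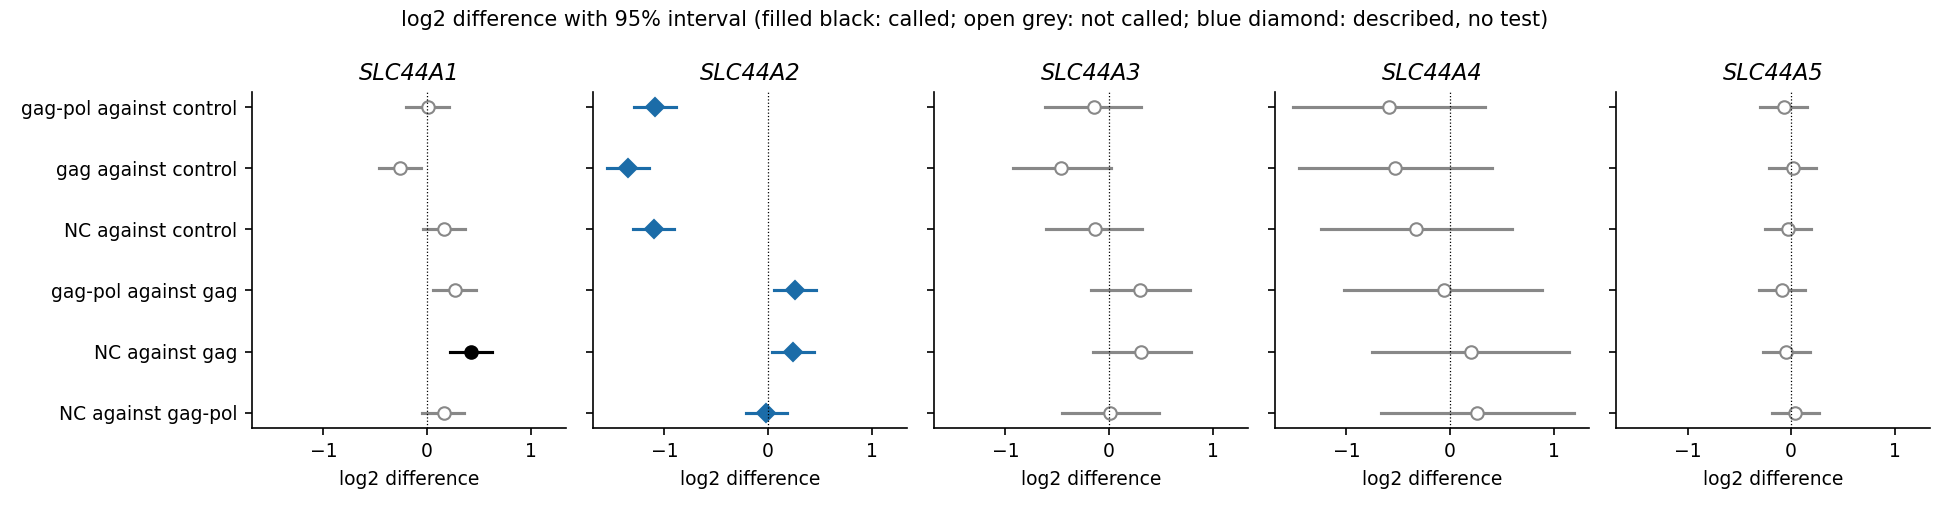
Log2 difference (x axis) of each SLC44 member in 6 contrasts of constructs (rows), with 95% intervals from the edgeR fit. The only filled point is *SLC44A1* for NC against gag at 0.42, and the *SLC44A2* diamonds, which carry no test, lie at -1.09 to -1.35 in the contrasts with control. The intervals of these diamonds are a description, as the gene was chosen on contrasts of constructs.

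Of the 4 members tested, 0 were called with any construct against control by edgeR's quasi-likelihood test, where 11.3% (gag-pol), 1.08% (gag) and 11.2% (NC) of all genes were called. At an unadjusted p under 0.05 there was 1, *SLC44A1* with gag, and DESeq2 called 0. Of the 268 other SLC genes tested, edgeR called 14 higher and 18 lower with gag-pol, 1 higher and 4 lower with gag, and 15 higher and 19 lower with NC. Over the 12 libraries, after the mean of each replicate number was subtracted, the log2 counts of *SLC44A2* had a Pearson correlation of 0.60 with *SLC44A3*, 0.58 with *SLC44A4*, 0.27 with *SLC44A1* and 0.11 with *SLC44A5*. These are descriptions over libraries that share depth and construct.

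Summed per length, the family's level was 34.6 ± 4.26 CPM per kilobase in control cells, 20.5 ± 1.04 in gag-pol cells, 17.8 ± 0.829 in gag cells and 20.9 ± 1.17 in NC cells (SD, n = 3 each). *SLC44A2* made up 75.0% ± 2.57 of the family in control cells, 59.8% ± 1.35 in gag-pol cells, 57.4% ± 0.726 in gag cells and 57.7% ± 1.15 in NC cells (SD, n = 3 each). It was thus the most abundant member per length with every construct. Without it the sum was 8.58 ± 0.747 in control cells, 8.24 ± 0.577 in gag-pol cells, 7.58 ± 0.325 in gag cells and 8.84 ± 0.436 in NC cells (SD, n = 3 each).

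**Figure D3:**
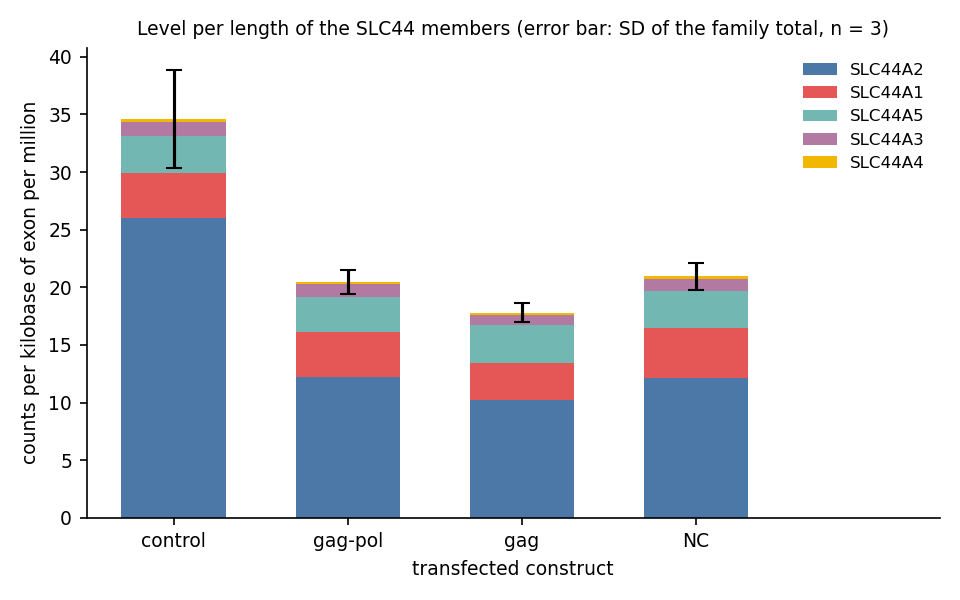
Stacked mean level of the 5 members, in CPM per kilobase of exon, for each transfected construct, with the SD of the family total as error bar (n = 3). The total is 34.6 in control cells and 17.8 to 20.9 with the PEG10 constructs, and the *SLC44A2* segment holds most of that difference.

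The genes around *SLC44A2* were compared with it by position. Within 200 kb, 14 of 20 genes of the table passed the filter. With gag-pol, edgeR called 2 lower, among them *KRI1*, 36.4 kb away (log2 fold change -0.27, standard error 0.09). With NC it called *KRI1* (-0.35), *PDE4A* (-0.30) and *TMED1* (-0.28) lower. Of all genes, 5.83% were called lower in gag-pol cells and 5.15% in NC cells. With gag it called 0, with 3 at an unadjusted p under 0.05 and 0 by DESeq2. *KRI1*, *PDE4A* and *TMED1* were named after their values were seen. *AP1M2*, the nearest tested gene on the side of lower coordinates at 15.1 kb, had a mean of 13.5 normalized counts in control cells and was not called. The strand setting of the counting is not stated, so the counts of the overlapping ends of *KRI1* and *ATG4D* are uncertain.

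**Figure D4:**
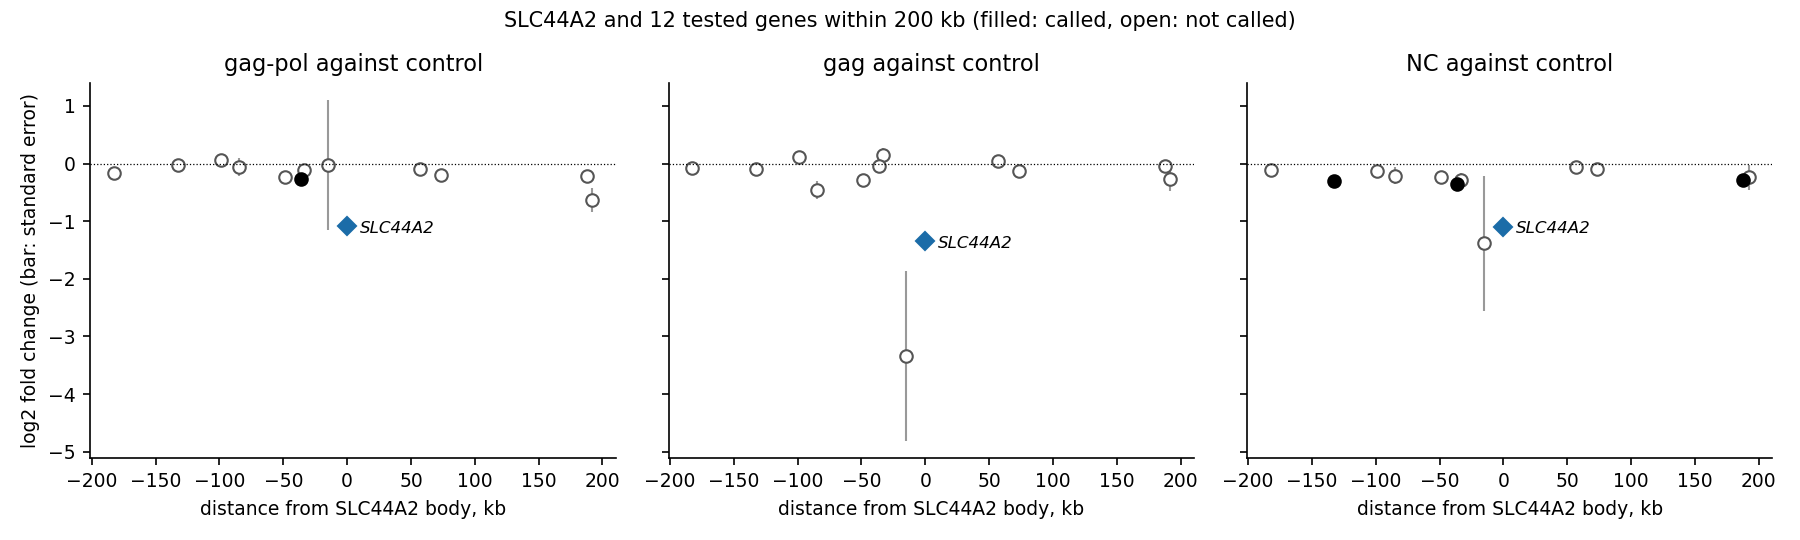
Log2 fold change against control (y axis, with standard error) of *SLC44A2* (diamond) and of 12 of the 14 tested genes within 200 kb, by distance in kilobases from the gene body (x axis), for gag-pol, gag and NC. Apart from *AP1M2*, which has few counts and wide error bars, the neighbours plotted lie between -0.63 and 0.15 in all panels and *SLC44A2* lies at -1.09, -1.35 and -1.10.

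The count of 2 with gag-pol was 1 without any of control replicates 2 and 3, gag-pol replicates 2 and 3, gag replicates 1 and 3 or NC replicates 1 and 3. The count of 3 with NC was 1 without control replicate 2 or NC replicate 1 and 0 without control replicate 3, and the count of 0 with gag was 1 without control replicate 3. With no replicate block, 0 neighbours were called with gag-pol or NC, and the share of all genes called under this setting is not given. Around *SLC44A1*, 0 of 3 tested genes within 200 kb were called with any construct by edgeR, 1 had an unadjusted p under 0.05 with gag-pol and DESeq2 called 0. The nearest, *FSD1L*, lies 8.62 kb away, and no tested gene lay on the lower side.

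Genes of choline and phospholipid metabolism were taken from 9 lists of 69 genes, of which 62 passed the filter. EdgeR called 7 with gag-pol (2 higher, 5 lower), 2 with gag (1 higher, 1 lower) and 7 with NC (3 higher, 4 lower). These are 11.3%, 3.23% and 11.3% of the genes tested, against 11.3%, 1.08% and 11.2% of all genes. The same shares of all genes stand beside the counts of single lists below, each of which holds few genes. The median log2 fold change of the 62 genes was -0.04, -0.05 and 0.00, and that of all genes was 0.00 in each comparison. All of these calls were lost with no replicate block, under which 0 of the 62 genes were called with any construct. The share of all genes called without the block is not given, so the 0 is not read as a result about these genes. The gag-pol count was 3 without gag-pol replicate 1. The gag count was 1 without control replicate 1 or gag replicate 3 and 0 without control replicate 2, gag replicate 1 or gag replicate 2. The NC count was 3 without control replicate 3 and 4 without NC replicate 1.

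In the list of choline transport outside the family, *SPNS1*, which encodes a lysosomal exporter of lysophospholipids, fell with gag-pol and NC. Its normalized counts in replicates 1, 2 and 3 were 2320, 1933 and 3065 in control cells, 1977, 1359 and 1775 with gag-pol, 1829, 1583 and 2409 with gag and 1946, 1336 and 1822 with NC. The groups overlapped, but each construct was below the control library of the same number in 3 of 3 replicates. Gag-pol gave a log2 fold change of -0.51 (standard error 0.10, adjusted p = 0.0027 in edgeR), NC gave -0.51 (standard error 0.10, adjusted p = 0.0034) and gag gave -0.33 (standard error 0.10, adjusted p = 0.12). The other 6 tested genes of the list were not called, and with gag 0 of 7 were called by edgeR, with 2 at an unadjusted p under 0.05 and 0 by DESeq2. *SLC5A7*, the high-affinity choline transporter of cholinergic neurons, had 0 counts in all 12 libraries, which allows up to 3 counts in each. The plasma membrane choline carrier gene *FLVCR1* had log2 values of 0.07 in gag-pol cells, 0.20 in gag cells and 0.13 in NC cells.

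In the CDP-choline branch of the Kennedy pathway, the main route to phosphatidylcholine, 0 of 5 tested genes were called by edgeR. At an unadjusted p under 0.05 there was 1 in gag-pol cells, 0 in gag cells and 2 in NC cells, and DESeq2 called 0, 0 and 1. *CHPT1*, which joins CDP-choline to diacylglycerol and had the highest level per length of the list (8.38), was at 0.07, 0.04 and 0.15 on the log2 scale for gag-pol, gag and NC. In the list of the ethanolamine branch, *PEMT*, which methylates phosphatidylethanolamine to phosphatidylcholine and led its list at 18.7 CPM per kilobase, rose with NC by 0.40 on the log2 scale (standard error 0.10, adjusted p = 0.015 in edgeR, higher in 3 of 3 replicates). It was the only one of 8 tested genes called. With gag-pol and gag edgeR called 0 of the 8, with 1 and 2 at an unadjusted p under 0.05 and 0 by DESeq2.

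*PNPLA6*, a lysophospholipase that releases glycerophosphocholine, was the gene of the lists that fell with all 3 constructs. Its normalized counts in replicates 1, 2 and 3 were 2879, 3479 and 7527 in control cells, 1942, 2151 and 4104 with gag-pol, 2311, 2554 and 5741 with gag and 1953, 2194 and 4233 with NC. Replicate 3 was highest in every construct, so the groups overlapped while each construct was below control in 3 of 3 replicates. The log2 fold changes were -0.71 with gag-pol (adjusted p = 1.1e-05 in edgeR), -0.39 with gag (adjusted p = 0.013) and -0.69 with NC (adjusted p = 3.6e-05), with a standard error of 0.08 each. It was 1 of 11 tested genes of choline release from phospholipids to be called. *LYPLA2*, a cytosolic thioesterase and the highest of the list per length (28.9), was not called (-0.15, -0.10 and -0.25 with gag-pol, gag and NC). None of the 7 sphingomyelin genes was called by edgeR, with 1 at an unadjusted p under 0.05, with gag, which DESeq2 called. *SMPD4*, a neutral sphingomyelinase and the highest of that list per length (17.7), had -0.07, -0.06 and -0.12.

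In choline oxidation and betaine use, *CHDH*, the mitochondrial enzyme that begins the oxidation of choline, rose with gag-pol by 0.42 on the log2 scale (standard error 0.11, adjusted p = 0.014 in edgeR). *DMGDH*, which demethylates dimethylglycine further along this route, fell with gag-pol (log2 fold change -1.43, standard error 0.38, adjusted p = 0.018), on 22 to 95 raw counts. *ALDH7A1*, which can oxidise betaine aldehyde, rose with NC by 0.30 (standard error 0.08, adjusted p = 0.015). In the list, 2 of 6 tested genes were called with gag-pol, 0 with gag (0 at an unadjusted p under 0.05 and 0 by DESeq2) and 1 with NC. Of all genes, 11.3%, 1.08% and 11.2% were called, and with 6 genes tested nothing is read from these counts.

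In the acetylcholine list, 2 of 5 tested genes were called lower with gag-pol and with NC, and neither makes acetylcholine. Of all genes, 5.83% were called lower with gag-pol and 5.15% with NC. With 5 genes tested, nothing is read from this count. *ACHE*, which encodes acetylcholinesterase, was at -0.39 on the log2 scale with gag-pol (standard error 0.11, adjusted p = 0.023 in edgeR) and -0.47 with NC (standard error 0.11, adjusted p = 0.010). *COLQ*, the collagen tail that anchors this enzyme, had -1.16 with gag-pol (standard error 0.21, adjusted p = 0.0021) and -1.0 with NC (standard error 0.21, adjusted p = 0.0065). Its normalized counts were 319 to 536 in control cells, 158 to 200 with gag-pol, 123 to 263 with NC and 290 to 319 with gag, so gag-pol and NC did not overlap with control. With gag 0 genes of this list were called, with 0 at an unadjusted p under 0.05 and 0 by DESeq2. The cholinergic gene *CHAT* was at 0 to 6 raw counts.

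In phosphatidylcholine remodelling, *LPCAT1*, a lysophosphatidylcholine acyltransferase and the highest of its list per length (27.9), was the 1 gene of 8 called. It rose by 0.30 with gag-pol (adjusted p = 0.012 in edgeR) and by 0.26 with NC (adjusted p = 0.027), with a standard error of 0.07 each, and with gag it had 0.16 (adjusted p = 0.33). With gag 0 of the 8 were called by edgeR, with 3 at an unadjusted p under 0.05 and 0 by DESeq2. In the thiamine list, edgeR called 1 of 5 tested genes with gag. With gag-pol and NC it called 0 of the 5, with 1 and 3 at an unadjusted p under 0.05 and 0 by DESeq2. Each call named in these lists had the same direction in 3 of 3 replicates. *SLC5A7*, *FLVCR1* and *CHAT* were named for their roles, after their values were seen.

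**Figure D5:**
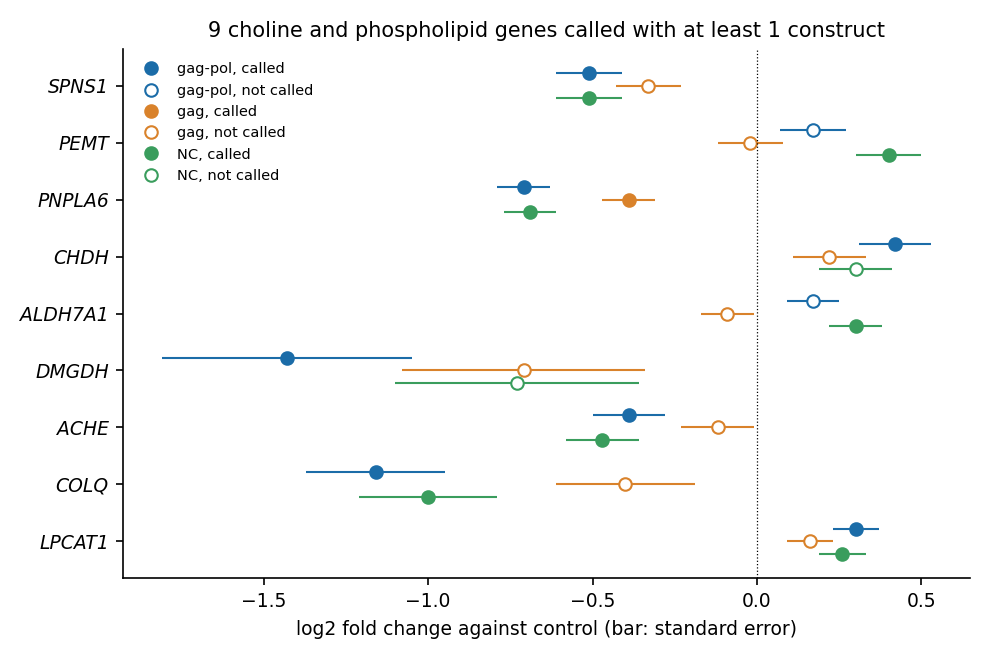
Log2 fold change against control (x axis, bar for the standard error) of 9 of the 10 choline and phospholipid genes called with at least 1 construct, with filled points where edgeR's adjusted p is under 0.05. *PNPLA6* is filled for all 3 constructs at -0.71, -0.39 and -0.69, and *COLQ* and *DMGDH* lie farthest from 0.

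The calls of *PNPLA6* with gag-pol and NC and of *SPNS1* with both were kept in all 15 fits without a library or a replicate number. For the other calls named, single libraries or a replicate number carried the call (adjusted p in edgeR without that library). *PNPLA6* with gag was lost without control replicate 2 (0.0833), gag replicate 1 (0.170) and gag replicate 2 (0.0979). *CHDH* with gag-pol was lost without control replicate 2 (0.0639), gag-pol replicate 1 (0.0512) and gag-pol replicate 2 (0.0844). *DMGDH* was lost without control replicates 1 (0.0802) and 3 (0.140) and gag-pol replicates 1 (0.0917) and 3 (0.0564). *ACHE* with gag-pol was lost without control replicates 2 (0.0696) and 3 (0.222) and gag-pol replicates 1 (0.0745) and 3 (0.158), and with NC without control replicate 3 (0.124) and NC replicate 3 (0.0615). *COLQ* with gag-pol was kept without each single library and lost without replicate number 3 (0.0507), and with NC it was lost without control replicate 3 (0.0738). *LPCAT1* with gag-pol was lost without control replicate 3 (0.0623) and gag-pol replicate 1 (0.0899), and with NC without control replicates 1 (0.0695) and 3 (0.131) and NC replicates 1 (0.112) and 3 (0.0976). *PEMT* with NC was lost without control replicate 3 (0.100) and NC replicate 1 (0.123), and *ALDH7A1* with NC without control replicate 2 (0.0927) and NC replicates 1 (0.0662) and 2 (0.0697).

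The genes whose pattern over the 12 libraries was most like that of *SLC44A2* were found among 13418 genes by Pearson correlation of log2 CPM after subtraction of replicate number means. They were *FLNA*, which encodes an actin crosslinker (r = 0.97), *SLC43A2*, an amino acid carrier (0.97), *XPO1*, a nuclear export receptor (0.97), *RTN2*, a reticulon (0.96) and *ATG4D*, an autophagy protease (0.95). The libraries share depth and construct, so this is a description. *SLC43A2* was most like it in size as well, with 1371, 907 and 891 normalized counts in control cells, 619, 504 and 417 with gag-pol, 521, 415 and 329 with gag and 463, 426 and 424 with NC. On the log2 scale it was at -1.03, -1.32 and -1.24 for gag-pol, gag and NC, where *SLC44A2* had -1.09, -1.35 and -1.10. The other genes differed less, with *XPO1* at -0.25, -0.39 and -0.32 and *FLNA* at -0.39, -0.48 and -0.41. *ATG4D* lies 49.0 kb from *SLC44A2* and had -0.24, -0.28 and -0.23.

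*SLC44A1* was most like *NDFIP1*, an adaptor of ubiquitin ligases (r = 0.99), *LAMP2*, a lysosomal membrane protein (0.99) and *USP11*, a deubiquitinase (0.98). Their log2 fold changes with gag were -0.26, -0.23 and -0.18, beside -0.26 for *SLC44A1*. The nearest patterns to *SLC44A3* were those of *PLEKHB1* (0.91) and *PAK4* (0.88). To *SLC44A4* they were those of *CNNM1* (0.90), *RNFT2* (0.89) and *ATP6V1B1* (0.88), and to *SLC44A5* those of *SNORD110* (0.92), *ZNF540* (0.89) and *UNC5CL* (0.89). These likenesses depend on the measure. With the replicate number means left in, 0 of the 3 nearest genes were kept for *SLC44A3* and for *SLC44A4*, and Spearman correlation kept 1 of 3 for each.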

How the data were processed

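The deposited values are raw counts per gene symbol, 1 column for each of 12 libraries. According to the methods and the submitters' processing notes, the authors sequenced poly(A) RNA, aligned reads to GRCh38.p13 with STAR 2.7.3, used SAMtools 1.8 and counted with featureCounts. The annotation release, strand setting and treatment of multiply mapped reads are not given in the sources used here.

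Counts were filtered (edgeR's filterByExpr by construct, minimum count 10, minimum total 15), scaled by TMM (factors 0.94 to 1.06) and fitted in edgeR 4.0.16 with glmQLFit (robust) and glmQLFTest on construct and replicate number over all 12 libraries, with 6 residual degrees of freedom. The 17176 genes tested hold 99.97% of counts. P-values were Benjamini-Hochberg adjusted over them, with a threshold of 0.05. The remaining variation was 10.7% (biological coefficient of variation), and standard errors are from the same fit. Depth ran from 30625725 to 45316749 counts per library. Libraries of the same construct were further apart than sampling noise (chi-square per degree of freedom 32.1 to 107).

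The numbers 1 to 3 in the titles were taken as the passages named in the series' design text. After removal of construct means, the 18 pairs of libraries with the same number correlated at 0.138 to 0.539 and the 36 pairs with different numbers at -0.498 to 0.072, so the numbers pair the libraries.

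Levels per length divide CPM (TMM-scaled) by the merged exon length of GENCODE release 44. Of 26485 symbols, 23161 matched by symbol and 1361 by an older symbol. Promoter windows are from RefSeq, as supplied for all 5 members. Named genes are the members, list genes called in at least 1 comparison with control, the highest gene per length in each list, the nearest tested neighbours of *SLC44A1* and *SLC44A2*, and the 5 (*SLC44A2*) or 3 (other members) genes of most similar pattern with a mean log2 CPM of at least 1. Some genes these rules pick are not reported here. The members and lists were chosen with earlier results of these data known. Alternatives were DESeq2 1.42.0, RLE factors, 2 other filters, no replicate number, *PEG10* left out, only the 6 libraries compared, each library or replicate number left out, transcript length and other measures of likeness. Analyses ran in R 4.3.3 and Python 3.11.15.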

Additional observations from a re-analysis of the deposited data

How the results depend on the processing

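With no replicate block, *SLC44A1* for NC against gag was 0.43 (adjusted p = 0.403 in edgeR) and 0 list genes were called with gag-pol, gag or NC, as were 0 neighbours of *SLC44A2* with gag-pol and with NC. Under alternatives that kept all libraries, *SLC44A2* against control stayed between -1.10 and -1.08 for gag-pol, -1.35 and -1.34 for gag, and -1.11 and -1.10 for NC. With only the 6 libraries compared, 4 list genes were called with gag-pol and 4 with gag, 1 neighbour was called with gag-pol, and *SLC44A1* for gag-pol against gag stayed at 0.27 and passed (adjusted p = 0.0214 in edgeR). DESeq2 called 6 of the 14 tested neighbours with gag-pol. The shares of all genes called under these alternatives are not given, so nothing is read from the counts of genes under them. With at least 10 counts in every library, *SLC44A1* for gag-pol against control was -0.01 and *SLC44A4* for replicate 3 against 1 was 0.85 and passed (adjusted p = 0.0411 in edgeR), where the reported value was 0.83 and not called (adjusted p = 0.094), and 0 of 12 fits without a library passed (0.55 to 1.05). With no filter, *SLC44A3* for replicate 3 against 2 was -0.01. With the longest transcript as length, control levels were 4.59 (*SLC44A1*), 34.0 (*SLC44A2*), 1.39 (*SLC44A3*) and 4.65 (*SLC44A5*). The causes were not tested. Spearman correlation kept 1 of the 5 genes most like *SLC44A2* and 1 of 3 for each other member. Leaving the replicate number means in kept 3 of 5 for *SLC44A2*, 1 of 3 for *SLC44A1* and *SLC44A5* and 0 of 3 for *SLC44A3* and *SLC44A4*.

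In the fits without 1 library or 1 replicate number, log2 values of *SLC44A1* ran from -0.16 to 0.11 for gag-pol against control, from -0.44 to -0.15 for gag against control, from 0.19 to 0.36 for gag-pol against gag, from 0.33 to 0.51 for NC against gag, from 0.27 to 0.38 for replicate 2 against 1 and from 0.09 to 0.26 for replicate 3 against 1. Those of *SLC44A2* ran from -1.20 to -0.92, -1.49 to -1.19 and -1.23 to -0.92 for gag-pol, gag and NC against control, from 0.19 to 0.32 for NC against gag, and from -0.05 to 0.13, -0.10 to 0.07 and -0.10 to 0.04 for replicates 2 against 1, 3 against 1 and 3 against 2. For *SLC44A3* they ran from -0.11 to 0.10 for NC against gag-pol and from -0.14 to 0.09 for replicate 3 against 2. For *SLC44A4* they ran from -0.83 to 0.09 for NC against control, from -0.26 to 0.20 for gag-pol against gag, from -0.21 to 0.55 for NC against gag and from -0.15 to 0.52 for NC against gag-pol. For *SLC44A5* they ran from -0.14 to 0.01, -0.05 to 0.07 and -0.10 to 0.05 for gag-pol, gag and NC against control, from -0.12 to 0.06 for NC against gag, from -0.07 to 0.14 for NC against gag-pol, and from -0.04 to 0.07 and -0.08 to 0.03 for replicates 2 and 3 against 1. The list genes called numbered 3 to 8 (gag-pol), 0 to 4 (gag) or 3 to 9 (NC), and the neighbours of *SLC44A2* called numbered 0 to 3, 0 to 1 and 0 to 3. Depth limits *SLC44A4* most, at 14 to 53 counts per library.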
